A study of Homo sapiens with 30 samples.

Results

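The 16 genes described here were high in human embryonic stem cells (hESC), low in the mesoderm that forms from them, and high again in day 31 cardiomyocytes. They were chosen from a time-course table of FPKM values (sequenced fragments, scaled to gene length and library size) with 41495 entries. A gene was taken when the lower of its stem cell and cardiomyocyte values was at least 10 FPKM and at least 4 times the highest of its values at days 2, 3 and 4 (D2, D3 and D4). Heart and stress genes named in the rule were left out, with histone, small nucleolar, microRNA and other small RNA names and names with a hyphen or a dot. That removed 8 further entries past the thresholds, FABP3, TNNI3, ATF3 and 5 small RNAs. The values of hESC, D2, D3, D4 and cardiomyocytes thus chose the genes and are given as a description, while D1, D5 to D15 and the sorted cells played no part. None of the 16 genes was listed at exactly 0 at any time point. They were SEPN1, GEM, EEF1A2, PER3, ENO2, HCN4, CREB5, MEF2D, FGF11, BHLHE40, PTRF, RRAGD, PLEKHA4, EMP3, HOOK1 and CBX6, and all 16 are protein-coding in GENCODE 29.

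The cells were the human stem cell line H7, kept as hESC in E8 medium, and its derivatives. From D1 the cells received 12 µM CHIR99021, a GSK3 inhibitor that switches on WNT signalling, for 24 hours and then 5 µM IWP4, which blocks WNT secretion, for 2 days, both in RPMI1640 with B27 minus insulin. They then stayed in RPMI1640 with complete B27 to D31. The 11 time points were hESC, D1, D2, D3, D4, D5, D6, D8, D10, D15 and cardiomyocytes of D31 purified on a Percoll gradient, with 2 libraries of ribosome-depleted total RNA each. The 4 sorted populations, also with 2 libraries each, were ROR2-positive (PMESO) and ROR2-negative cells of D3, and ROR2-positive, PDGFRa-positive (CMESO) and ROR2-positive, PDGFRa-negative cells of D4. All groups came from this 1 cell line, and purification is stated for the D31 and sorted cells alone. In such bulk RNA a smaller share of cells with a transcript and less of it per cell cannot be told apart. The table gives 1 value for both libraries of a time point, so time-course values have no spread and no test.

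The 16 genes do not make up a known pathway. As background, several serve electrically active or contractile cells. HCN4 is the channel of the pacemaker current, and GEM a small GTPase that holds back voltage-gated calcium channels. FGF11 is an intracellular FGF homologue related to proteins that bind sodium channels. PTRF (now CAVIN1) is a coat protein of caveolae, small pits of the cell membrane in muscle and many other cell types. Others act in the nucleus, such as the clock genes PER3 and BHLHE40, the transcription factors CREB5 and MEF2D, and the Polycomb subunit CBX6. ENO2 is a glycolytic enzyme and EEF1A2 a translation elongation factor, and both are isoforms known from nerve or muscle.

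The end columns and the sorted cells carried the markers of their labels. Summed over 8 pluripotency genes, cardiomyocytes held 12.2 FPKM and hESC 3092 FPKM, and summed over 9 cardiomyocyte genes they held 12435 and 17.0 FPKM. Over 8 primitive streak and mesoderm genes the sum was 4.80 FPKM in hESC, 439 at D2, 172 at D3 and 239 at D4. The pluripotency sum was still 1980 FPKM at D2, 1033 at D3 and 523 at D4. ROR2 stood at 72.0 FPKM in ROR2-positive and 5.90 FPKM in ROR2-negative D3 cells, and PDGFRA at 303.9 FPKM in PDGFRa-positive and 8.28 FPKM in PDGFRa-negative D4 cells, in the authors' deposited tables. Summed FPKM ranged between 617580 (D15) and 1429857 (hESC).

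At D1, the day on which medium with CHIR99021 took the place of E8, the genes were already low. Their D1 level was 4.80% (ENO2) to 52.4% (BHLHE40) of the hESC level, with a median of 14.8%, and 12 of the 16 were under 25%. A gene was counted as lower when its log2(FPKM + 1) was smaller by 1 or more, which is 2-fold. By this measure 15 of 16 (93.8%) were lower at D1 than in hESC. Of all 21715 genes that reached 1 FPKM at any time point, 11.1% were. The share was 12.1% of the 6176 genes with at least 10 FPKM in both hESC and cardiomyocytes. The median log2 difference of D1 against hESC was -2.48 for the 16 genes and 0.00 for the 21715. The hESC column was used to choose the genes, which makes these counts a description. BHLHE40 was the gene outside the count. Medium, supplement and CHIR99021 changed together at this step, so their parts cannot be told apart.

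**Figure D1:**
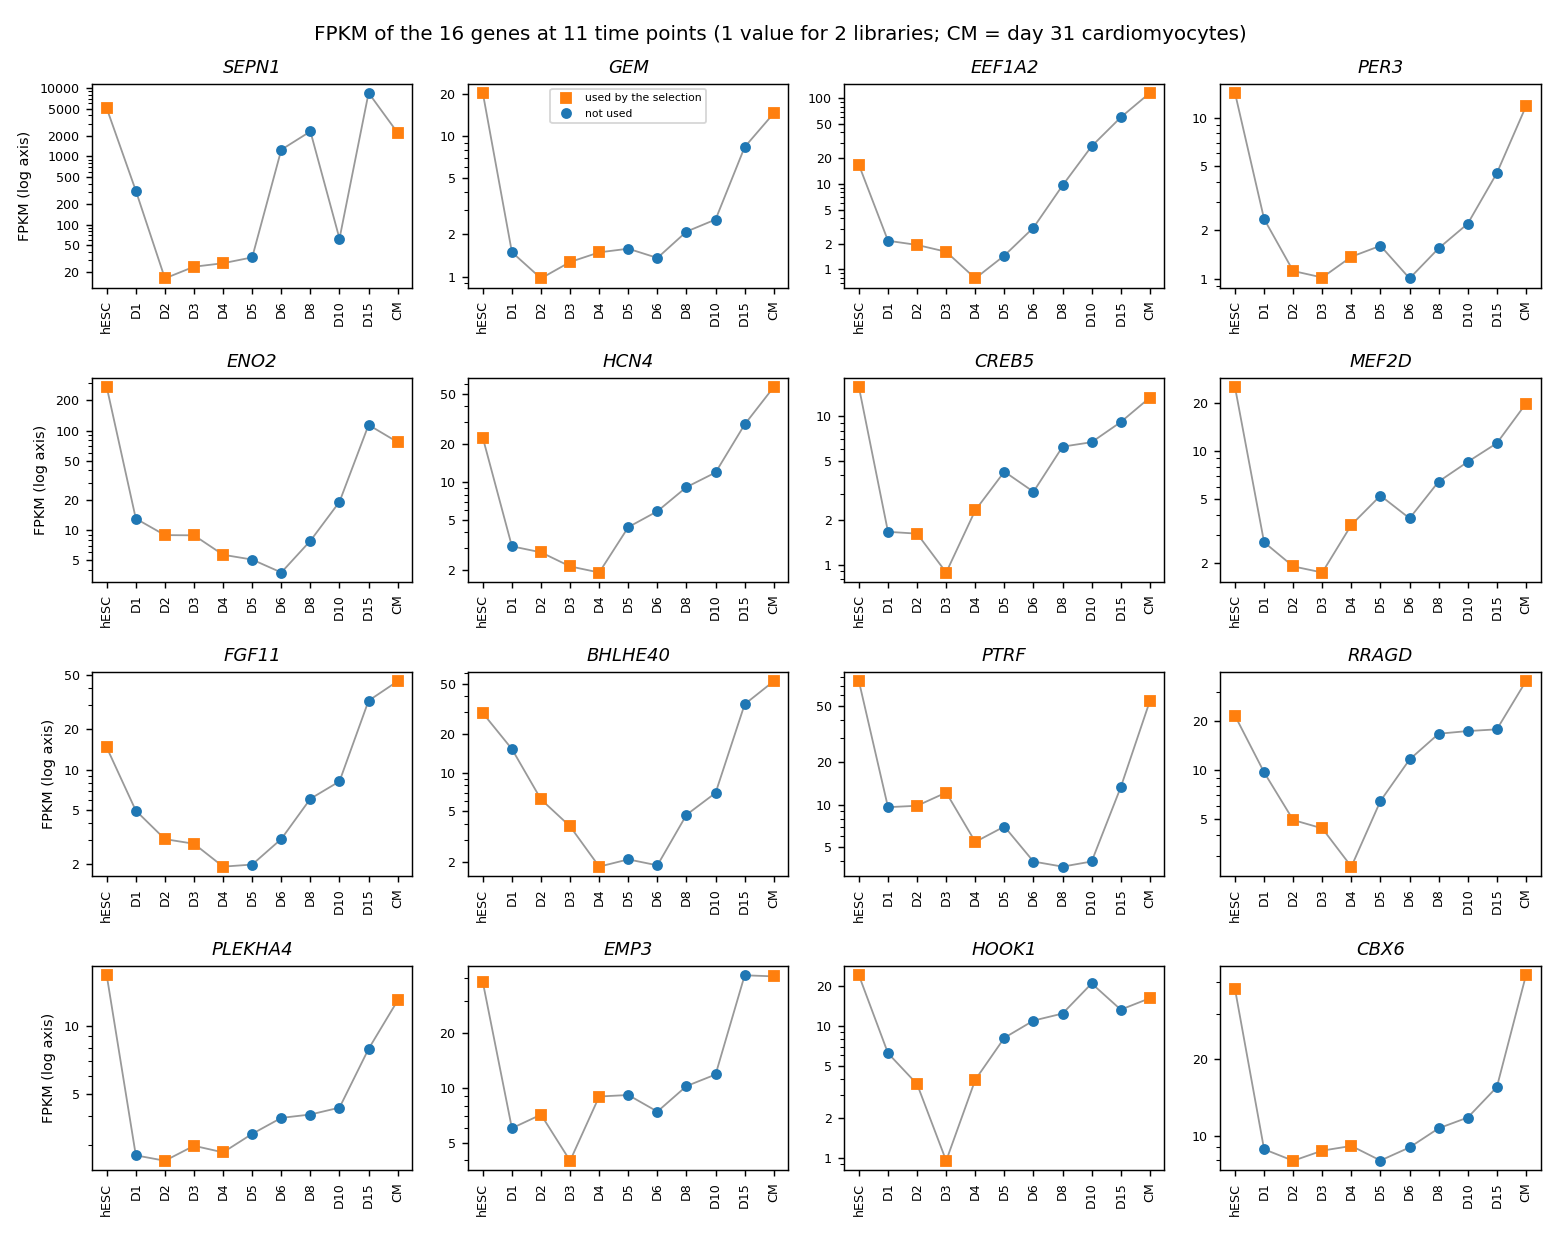
FPKM of each of the 16 genes (log axes, each panel with its own range) at the 11 time points, 1 point per time point for 2 libraries. Orange squares are the columns used to choose the genes and blue circles the columns not used. In all panels D1 lies below hESC, and in all except SEPN1, ENO2, EMP3 and HOOK1 the highest value after D4 is that of cardiomyocytes.

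The way back up was slow. Against D4, on the same log2(FPKM + 1) scale, 1 of 16 genes (6.25%) was 2-fold higher at D5, 5 (31.2%) at D6, 8 (50%) at D8, 10 (62.5%) at D10 and 15 (93.8%) at D15. Among the 21715 genes these shares were 3.68% at D5, 3.60% at D6, 4.76% at D8, 5.49% at D10 and 10.8% at D15. Among the 6176 genes high at both ends they were 2.49%, 3.98%, 4.57%, 4.19% and 6.75% at the same time points. D4 was low in the 16 genes by their choice, so these counts are a description too. The median member stood at 13.2% of its cardiomyocyte level at D5, 14.2% at D6, 20.5% at D8, 24.5% at D10 and 59.4% at D15. Without SEPN1, whose values jump, it stood at 10.3% at D6 and 16.1% at D8. HOOK1 first reached 50% of its cardiomyocyte level at D5, SEPN1 at D6 and CREB5 at D10. At D15 10 more genes reached it, and PER3, PTRF and CBX6 in cardiomyocytes alone. These shares and dates use the columns as given. Rescaling the columns by their median ratio (log2 shifts of -0.57 at D15 and -0.15 in cardiomyocytes) raises every D15 share and may move such dates. Some of these dates rest on values at the limit. HOOK1 was at 50.1% at D5, CREB5 at 50.1% at D10, and RRAGD at 49.5% at D10 and 50.7% at D15. HCN4 was at 50.5% and EEF1A2 at 51.8% at D15. In purified cardiomyocytes against D15 cells, 3 genes (18.8%) were at least 2-fold higher, PTRF, CBX6 and PER3, and SEPN1 was lower. With columns rescaled by their median ratio, the log2 difference stayed above 1 for PTRF (1.56) and not for CBX6 (0.999) and PER3 (0.86). Cardiomyocyte marker genes summed to 12435 FPKM in cardiomyocytes and 7740 FPKM at D15, and fibroblast and smooth muscle genes to 1736 and 3540 FPKM, and their part in this step was not tested. Of the 21715 genes 7.23% were higher in that step, and of the 6176 high at both ends 12.3%.

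**Figure D2:**
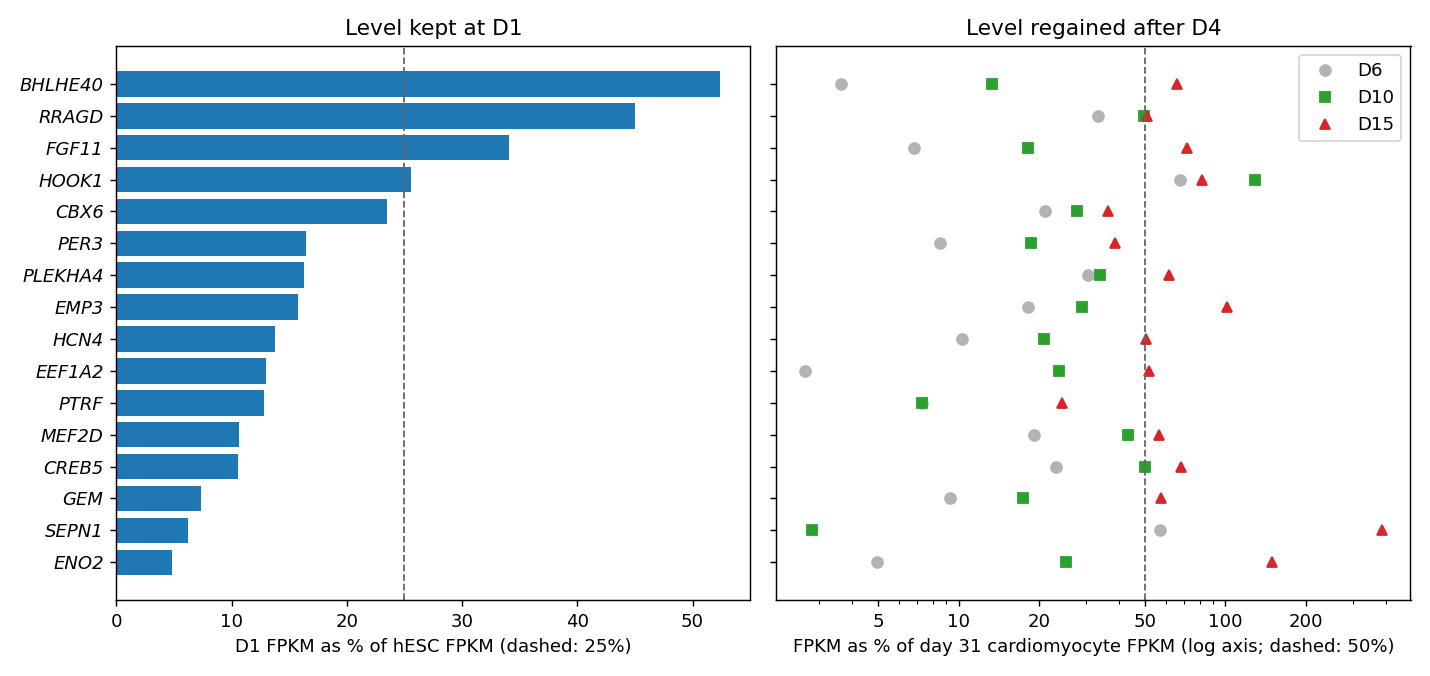
Left, the D1 level of each gene as a percentage of its hESC level (bars). Right, its D6, D10 and D15 levels as a percentage of its level in day 31 cardiomyocytes (log axis), with 1 value per time point. BHLHE40, RRAGD, FGF11 and HOOK1 kept at least 25% at D1, and 10 of the 16 genes first passed 50% at D15. The D6 point of PTRF lies under its D10 point.

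HCN4 was 1 of 5 genes, with EEF1A2, FGF11, RRAGD and PLEKHA4, that were higher at each time point after D4 than at the one before. It stood at 22.6 FPKM in hESC, 3.11 at D1, 2.78 at D2, 2.15 at D3 and 1.93 at D4. Later it stood at 4.41 FPKM at D5, 5.90 at D6, 9.17 at D8, 12.0 at D10, 28.8 at D15 and 57.1 in cardiomyocytes. Cardiomyocytes held 2.53 times the hESC level, and D15 was the first time point above it. The HCN4 gene lies at chr15:73612200-73661605 in hg19. Its promoter window, 250 bases before to 50 after the transcription start in RefSeq (GRCh38.p14, chr15:73368909-73369208, minus strand), is shown because the gene was called in both sorts, with both matches to the GC box GGGCGG (on either strand) in capitals.
HCN4: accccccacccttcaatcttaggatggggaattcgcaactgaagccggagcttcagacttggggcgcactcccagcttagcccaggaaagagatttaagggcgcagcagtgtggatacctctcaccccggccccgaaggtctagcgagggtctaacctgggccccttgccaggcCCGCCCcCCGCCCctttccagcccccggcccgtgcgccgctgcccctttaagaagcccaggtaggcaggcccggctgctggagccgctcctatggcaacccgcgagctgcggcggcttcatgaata
The matches begin 76 and 69 bases before the start, and 45.0% of the 35116 promoter windows of the same length hold that motif.

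GEM had its highest value in hESC and needed until D15 to leave the low range. It was measured at 20.4 FPKM in hESC, 1.49 at D1, 0.971 at D2, 1.27 at D3 and 1.49 at D4. After that it was measured at 1.58 FPKM at D5, 1.36 at D6, 2.09 at D8, 2.55 at D10, 8.38 at D15 and 14.6 in cardiomyocytes. Between D1 and D10 the 8 values stayed at 2.55 FPKM or below, and D15 was the first above them. FGF11 declined in smaller steps, at 14.6 FPKM in hESC, 4.97 at D1, 3.06 at D2, 2.83 at D3 and 1.91 at D4. It then had 1.98 FPKM at D5, 3.07 at D6, 6.08 at D8, 8.18 at D10, 32.3 at D15 and 45.1 in cardiomyocytes, so that cardiomyocytes held 3.09 times the hESC level. The hg19 locus that the sort tables give for FGF11 (chr17:7323422-7361026) is 5.64 times as long as the gene in GENCODE 29, where its exons overlap AC113189.2, AC113189.3 and AC113189.4, so its values are uncertain. PTRF had the latest minimum of the 16. Its values were 75.2 FPKM in hESC, 9.63 at D1, 9.85 at D2, 12.2 at D3 and 5.46 at D4. They were 7.02 FPKM at D5, 3.96 at D6, 3.65 at D8, 3.97 at D10, 13.3 at D15 and 54.4 in cardiomyocytes, lowest at D8. The gene's D15 level was 24.5% of its cardiomyocyte level, the smallest share among the 16, and its step from D15 was the largest upward one (log2 difference 1.95).

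The clock genes PER3 and BHLHE40 differed in how fast they left the stem cell level. PER3, a period protein of the circadian clock, had 14.3 FPKM in hESC, 2.35 at D1, 1.12 at D2, 1.02 at D3 and 1.37 at D4. It went on with 1.60 FPKM at D5, 1.004 at D6, 1.54 at D8, 2.20 at D10, 4.53 at D15 and 11.8 in cardiomyocytes. BHLHE40, a repressor of clock genes that also responds to hypoxia in many cells, had 29.3 FPKM in hESC, 15.4 at D1, 6.21 at D2, 3.82 at D3 and 1.85 at D4. It continued with 2.11 FPKM at D5, 1.90 at D6, 4.71 at D8, 6.98 at D10, 34.4 at D15 and 52.2 in cardiomyocytes. BHLHE40 was 1 of 6 genes that were lower at each time point than at the one before until D4, whereas PER3 was at 16.5% of its hESC level by D1. In GENCODE 29 PER3 shares exon sequence on the other strand with Z98884.1 and with UTS2 (UTS2 at 0.297 to 3.96 FPKM over the time course, highest in cardiomyocytes), and BHLHE40 with BHLHE40-AS1 (0.200 to 1.04 FPKM). Whether reads were assigned by strand is not given in the sources used here, so reads of such pairs cannot be told apart.

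CREB5 and MEF2D, a CREB-family and a MEF2-family transcription factor, had nearly parallel values. CREB5 stood at 15.7 FPKM in hESC, 1.66 at D1, 1.62 at D2, 0.885 at D3 and 2.32 at D4. From D5 on it stood at 4.23 FPKM at D5, 3.10 at D6, 6.23 at D8, 6.68 at D10, 9.13 at D15 and 13.3 in cardiomyocytes. MEF2D showed 25.2 FPKM in hESC, 2.69 at D1, 1.90 at D2, 1.74 at D3 and 3.46 at D4. It then showed 5.27 FPKM at D5, 3.80 at D6, 6.45 at D8, 8.58 at D10, 11.2 at D15 and 19.8 in cardiomyocytes. Both were lowest at D3, had a second, smaller dip at D6 and ended slightly below hESC, at 0.849 and 0.787 times its level. CBX6, which binds histone H3 methylated by Polycomb, was flat in between: 37.6 FPKM in hESC, 8.85 at D1, 7.98 at D2, 8.74 at D3 and 9.12 at D4. It remained at 7.998 FPKM at D5, 9.003 at D6, 10.7 at D8, 11.8 at D10, 15.5 at D15 and 42.6 in cardiomyocytes. The 8 values of D1 to D10 lay between 7.98 and 11.8 FPKM, and cardiomyocytes held 42.6 FPKM, against 15.5 FPKM at D15.

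The promoter windows of BHLHE40 (chr3:4979187-4979486, plus strand) and CBX6 (chr22:38872167-38872466, minus strand; RefSeq, GRCh38.p14) are shown because each holds the E-box CACGTG, the letters that clock factors and other basic helix-loop-helix proteins bind, in capitals.
BHLHE40: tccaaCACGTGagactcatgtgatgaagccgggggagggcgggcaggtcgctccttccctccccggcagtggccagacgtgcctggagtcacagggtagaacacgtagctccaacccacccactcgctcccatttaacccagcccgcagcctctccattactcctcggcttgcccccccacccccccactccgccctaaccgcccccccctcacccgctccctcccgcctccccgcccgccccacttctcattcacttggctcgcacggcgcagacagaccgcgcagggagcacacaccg
CBX6: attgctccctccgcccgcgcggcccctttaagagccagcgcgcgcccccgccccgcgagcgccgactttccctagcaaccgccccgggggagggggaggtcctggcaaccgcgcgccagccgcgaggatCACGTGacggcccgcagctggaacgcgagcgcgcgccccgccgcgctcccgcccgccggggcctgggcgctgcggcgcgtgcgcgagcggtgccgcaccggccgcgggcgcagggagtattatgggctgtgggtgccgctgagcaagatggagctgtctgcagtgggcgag
The match begins 245 bases before the start in BHLHE40 and 121 in CBX6. Of the 16 genes 11 had an entry among these windows, with 17 windows in all because some have several starts. The E-box was in 3 of the 17 (BHLHE40, FGF11 and CBX6), against 7.26% of all 35116 windows. TGANTCA (AP-1) was in 3 windows (CREB5, ENO2 and FGF11), against 7.71%, TATAAA in 2 (CREB5 and EMP3), against 11.5%, and GGGCGG in 12, against 45.0%. TGATGNAA and TGACCTT were in 1 each (CREB5), against 3.62% and 3.92%, while TGACGTC and GAANNTTC were in 0 of the 17, against 3.45% and 6.77%. Both strands were searched, CACGTG and TGANTCA overlap in 1 FGF11 window, and a match is not evidence of binding.

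ENO2, the neuronal enolase of glycolysis, kept the smallest share of its hESC level at D1. Its level was 273 FPKM in hESC, 13.1 at D1, 8.94 at D2, 8.90 at D3 and 5.68 at D4. It was 5.09 FPKM at D5, 3.77 at D6, 7.85 at D8, 19.3 at D10, 114 at D15 and 76.4 in cardiomyocytes. The hg19 locus listed for ENO2 in the D4 sort is 5.68 times as long as the gene in GENCODE 29, so these values are uncertain. ENO2 was lowest at D6 and higher at D15 than in purified cardiomyocytes, and its cardiomyocyte level was 0.28 times the hESC level. Its promoter window (RefSeq, GRCh38.p14, chr12:6914330-6914629, plus strand) is shown for the match to AP-1, in capitals, which begins 94 bases before the start.
ENO2: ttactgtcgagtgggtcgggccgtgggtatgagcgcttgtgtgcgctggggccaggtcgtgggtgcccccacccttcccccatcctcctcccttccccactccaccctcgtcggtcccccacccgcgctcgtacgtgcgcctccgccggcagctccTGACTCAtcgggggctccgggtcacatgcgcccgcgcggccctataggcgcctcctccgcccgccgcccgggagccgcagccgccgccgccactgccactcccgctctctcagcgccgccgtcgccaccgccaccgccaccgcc
EEF1A2 ran the other way, with the highest ratio of cardiomyocytes to hESC among the 16. It stood at 16.7 FPKM in hESC, 2.16 at D1, 1.93 at D2, 1.61 at D3 and 0.785 at D4. It was next found at 1.45 FPKM at D5, 3.07 at D6, 9.58 at D8, 27.5 at D10, 59.9 at D15 and 116 in cardiomyocytes. Cardiomyocytes held 6.93 times the hESC level. Its near-identical paralogue EEF1A1 was listed at 0 in hESC and at 1834 FPKM or more in the other columns, and reads of both genes may be split between them, so the hESC value of EEF1A2 is uncertain. RRAGD, a GTPase that relays amino acid supply to mTORC1 at the lysosome, was lower by D1 and again by D2, with 21.5 FPKM in hESC, 9.70 at D1, 4.95 at D2, 4.40 at D3 and 2.57 at D4. It then had 6.48 FPKM at D5, 11.6 at D6, 16.7 at D8, 17.3 at D10, 17.8 at D15 and 35.0 in cardiomyocytes, and was the 1 gene 2-fold higher at D5 than at D4 on the log2(FPKM + 1) scale.

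HOOK1, PLEKHA4 and EMP3 belong to membranes and transport. HOOK1, an adaptor that links cargo to the motor dynein, had 24.3 FPKM in hESC, 6.23 at D1, 3.63 at D2, 0.950 at D3 and 3.92 at D4. It reached a late maximum before the end, with 8.15 FPKM at D5, 11.0 at D6, 12.5 at D8, 21.1 at D10, 13.3 at D15 and 16.3 in cardiomyocytes. PLEKHA4, a phosphoinositide-binding protein that modulates WNT signalling through Dishevelled, had 16.6 FPKM in hESC, 2.70 at D1, 2.56 at D2, 2.98 at D3 and 2.79 at D4. It then had 3.36 FPKM at D5, 3.94 at D6, 4.08 at D8, 4.37 at D10, 7.91 at D15 and 12.9 in cardiomyocytes, above 4.37 FPKM at D15 and in cardiomyocytes alone among these later time points. EMP3, a membrane protein of the PMP22 family, was measured at 38.1 FPKM in hESC, 6.01 at D1, 7.14 at D2, 3.99 at D3 and 8.98 at D4. It had 9.15 FPKM at D5, 7.42 at D6, 10.2 at D8, 11.9 at D10, 41.5 at D15 and 40.9 in cardiomyocytes, with nearly equal values in cardiomyocytes and at D15 (log2 difference -0.02, and -0.44 with rescaled columns). EMP3 shares exon sequence with CCDC114 on the other strand, which stayed at 0.110 to 1.79 FPKM. The hg19 locus listed for EMP3 in the D4 sort is 3.77 times as long as the gene in GENCODE 29, so its values are uncertain.

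In GENCODE 29 SEPN1 (now SELENON) shares exon sequence with AL020996.2 on its own strand and AL020996.1 on the other. SEPN1, an endoplasmic reticulum selenoprotein needed in skeletal muscle, met the rule with values that jump. The table gives it 5082 FPKM in hESC, 315 at D1, 16.3 at D2, 24.2 at D3 and 27.2 at D4. It goes on with 33.2 FPKM at D5, 1255 at D6, 2327 at D8, 62.4 at D10, 8532 at D15 and 2216 in cardiomyocytes. Of its 10 steps between neighbouring time points 5 were at least 8-fold, and it went to 62.4 FPKM at D10 between 2327 at D8 and 8532 at D15. Among the 21715 genes 1.33% had 4 or more such steps (0.1 FPKM added), and no other of the 16 genes had more than 1. No fold change is given for it, and the shares for the other 15 genes stand on their own: without it their D15 median was 57.4% of the cardiomyocyte level.

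In the D3 sort, 9 of the 16 genes were in the authors' deposited table of differences (q-value under 0.05), and all 9 were lower in ROR2-positive cells. Under some other selection rules, given below, the direction was mixed. Of the 21715 genes 20.6% were called in this sort, 11.4% as higher and 9.15% as lower, and of the 6176 high at both ends 21.9%, 11.7% as higher and 10.2% as lower. These libraries had no part in choosing the 16 genes, and their FPKM values are not compared with those of the time course. PTRF (chr17:40554470-40575535, hg19) had the largest difference, with 4.43 FPKM in ROR2-positive and 18.5 FPKM in ROR2-negative cells (log2 ratio -2.06, q-value 0.000375) in the authors' deposited table. HOOK1 (chr1:60280458-60342050) followed in the authors' deposited table, with 1.23 FPKM in ROR2-positive and 4.74 FPKM in ROR2-negative cells (log2 ratio -1.94, q-value 0.000375). The next genes differed about 2-fold. In the authors' deposited table PER3 had 0.825 FPKM in ROR2-positive and 1.70 FPKM in ROR2-negative cells (log2 ratio -1.05, q-value 0.0303). HCN4 had 1.59 FPKM in ROR2-positive and 3.26 FPKM in ROR2-negative cells (log2 ratio -1.04, q-value 0.000375) in the authors' deposited table. EEF1A2 stood in the authors' deposited table at 2.29 FPKM in ROR2-positive and 4.43 FPKM in ROR2-negative cells (log2 ratio -0.95, q-value 0.000375). The others were smaller: the authors' deposited table has log2 ratios of -0.63 for PLEKHA4, -0.56 for FGF11, -0.50 for RRAGD and -0.36 for CBX6, with q-values of 0.0201 to 0.0477. SEPN1, GEM, ENO2, CREB5, MEF2D, BHLHE40 and EMP3 were not in that table, which holds called genes alone.

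In the D4 sort of ROR2-positive cells, 9 of the 16 genes were called in the authors' deposited table as well, 5 as higher and 4 as lower in PDGFRa-positive cells. PER3, PLEKHA4 and CBX6, which were called at D3, were not in it. Of the 21715 genes 21.3% were called there, 10.2% as higher and 11.1% as lower, and of the 6176 high at both ends 22.2%, 12.3% as higher and 9.93% as lower. CREB5 (chr7:28338940-28865511, hg19) rose most in the authors' deposited table, with 8.02 FPKM in PDGFRa-positive and 2.14 FPKM in PDGFRa-negative cells (log2 ratio 1.90, q-value 0.000269). EMP3, whose listed locus (chr19:48799714-48833810) is 3.77 times the gene's length, was next in the authors' deposited table, with 18.1 FPKM in PDGFRa-positive and 5.88 FPKM in PDGFRa-negative cells (log2 ratio 1.62, q-value 0.000269). HCN4 was higher too in the authors' deposited table, with 4.47 FPKM in PDGFRa-positive and 1.84 FPKM in PDGFRa-negative cells (log2 ratio 1.28, q-value 0.000269). RRAGD and PTRF were higher by less, with log2 ratios of 0.74 (q-value 0.0115) and 0.46 (q-value 0.00118) in the authors' deposited table. ENO2 was the most reduced in the authors' deposited table, with 4.66 FPKM in PDGFRa-positive and 14.4 FPKM in PDGFRa-negative cells (log2 ratio -1.63, q-value 0.0466). That call lies close to the q-value limit and its locus (chr12:6976283-7032861, hg19) spans 5.68 times the gene's length. HOOK1 was lower as in the D3 sort, in the authors' deposited table with 3.70 FPKM in PDGFRa-positive and 7.61 FPKM in PDGFRa-negative cells (log2 ratio -1.04, q-value 0.000269). FGF11 and EEF1A2 were lower by 0.64 and 0.58 log2 units in the authors' deposited table (q-values 0.0291 and 0.00279).

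Both sort tables shared 6 of the 16 genes. HOOK1, FGF11 and EEF1A2 were lower in the positive cells of both, whereas HCN4, RRAGD and PTRF were lower in ROR2-positive cells at D3 and higher in PDGFRa-positive cells at D4, in the authors' deposited tables. The difference between both sorts was not tested. GEM, MEF2D, BHLHE40 and SEPN1 were in neither.

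**Figure D3:**
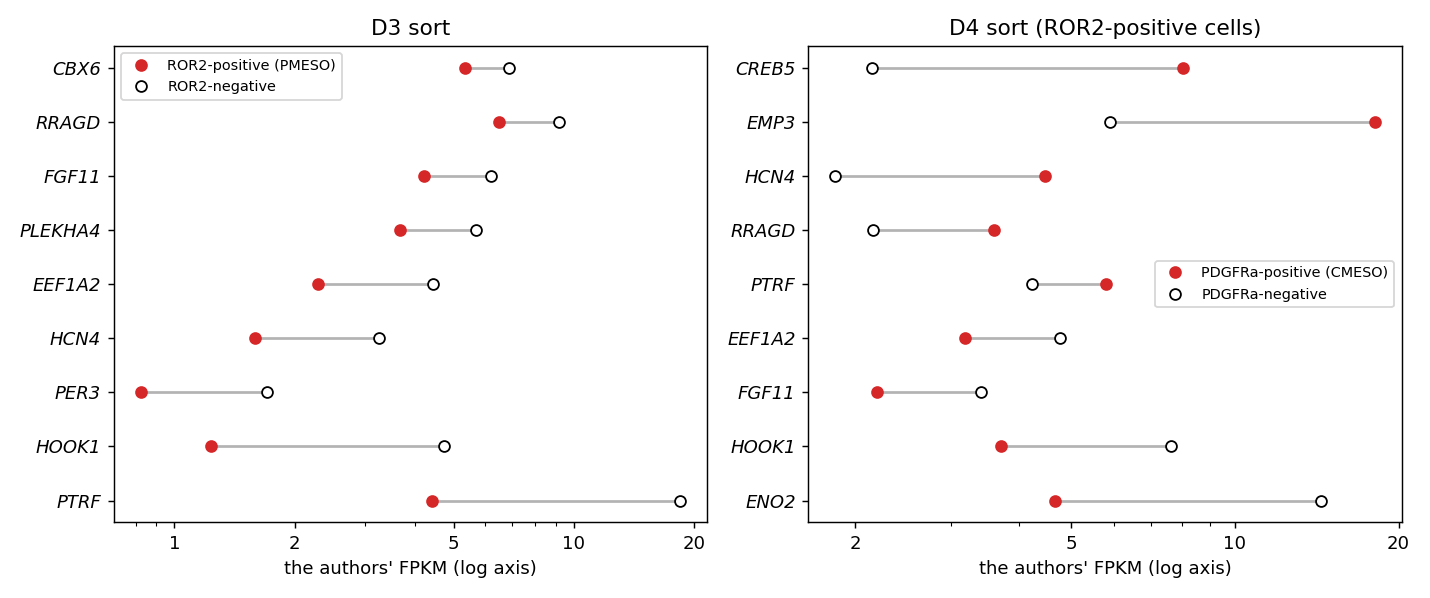
The authors' FPKM (log axes) of the 9 genes called in each sort, with filled points for the positive and open points for the negative cells, 1 value for 2 libraries each. All 9 filled points lie left of the open ones in the D3 sort, and 5 of 9 lie right of them in the D4 sort.

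Lists of related genes were searched for the same shape. A 2-fold dip, the lower of both ends against the highest of D2 to D4 on the log2(FPKM + 1) scale, was present in 0.944% of the 21715 genes and in 1.88% of the 6176 high at both ends. Among the genes of ion channels and excitability HCN4 had it, and so did KCNH2, a repolarizing potassium channel with 23.1 FPKM in hESC, 3.07 to 6.43 FPKM at D2 to D4 and 29.6 FPKM in cardiomyocytes. In that list 12 of 14 genes were higher and 1 lower in cardiomyocytes than at D3 (median log2 difference 2.65). Of the 21715 genes 17.3% were higher and 14.3% lower (median 0.04). At D3 0 of the 14 were higher and 4 lower than in hESC (median -0.26), against 11.3% higher and 13% lower of the 21715 (median 0.00). Of 16 hypoxia and glycolysis genes 2 had the dip, ENO2 and ALDOC, and 13 were higher and 1 lower in cardiomyocytes than at D3 (median 1.87), against the same 17.3% and 14.3% of all genes. The summed level of these 16 genes was 2848 FPKM in hESC, 1370 at D2, 1183 at D3, 583 at D4 and 3510 in cardiomyocytes. The ends of this sum, too, rested partly on different genes. SLC2A3 had 923 FPKM in hESC and 185 in cardiomyocytes, and PFKP had 49.7 and 365 FPKM.

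Of 17 measured genes of fatty acid and PPAR targets 2 had the dip (FABP3 and ANGPTL4), of 18 targets of the integrated stress response 1 (VLDLR) and of 14 epithelial genes 1 (CLDN4). In the lists of 14 p53 targets, 16 mitochondrial energy genes, 15 insulin and growth factor response genes, 14 cholesterol and lipid synthesis genes, 14 neuronal and secretory genes and 15 measured metallothionein and oxidative response genes, 0 had it. The 14 neuronal and secretory genes had a median log2 difference of -1.41 between cardiomyocytes and D3. The sum of 5 neural marker genes was 8.25 FPKM in hESC, 87.9 at D3, 15.2 at D15 and 9.47 in cardiomyocytes. At D3 nearly all of it was STMN2 (85.9 FPKM), with SOX1, SOX10 and ELAVL4 under 1 FPKM. PAX6 went the other way, with 0.966 FPKM at D3 and 6.07 in cardiomyocytes. The part of neural cells in the values of ENO2 and EEF1A2 was not tested.

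The summed level of 19 stress and immediate early genes was also higher at both ends than at D4. The sum was 1298 FPKM in hESC, 230.4 at D1, 251.5 at D2, 426 at D3, 600.0 at D4, 617 at D5, 475 at D6, 584 at D8, 731 at D10, 359 at D15 and 1422 in cardiomyocytes. At D1, 15 of 19 were 2-fold lower than in hESC, against 11.1% of the 21715 genes. In cardiomyocytes 18 of 19 were 2-fold higher than at D15, against 7.23%. The ends of the sum rested partly on different genes. HSPA1B had 222 FPKM in hESC and 23.1 in cardiomyocytes, and FOS had 99.2 and 272 FPKM. Of the 19, 1 gene, ATF3, had the dip and is left out of the 16 genes by name, and others were lower in hESC than at D4, such as EGR1 with 17.3 FPKM in hESC and 79.1 at D4. At D15 this sum was below that at D4, and the FPKM summed over all genes was lowest at D15 too. The part of stress genes in the hESC and cardiomyocyte values of the 16 genes was not tested. The early end rests on the hESC column: with D1 in its place, 2 genes meet the rule, SEPN1 and ACSL1.

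**Figure D4:**
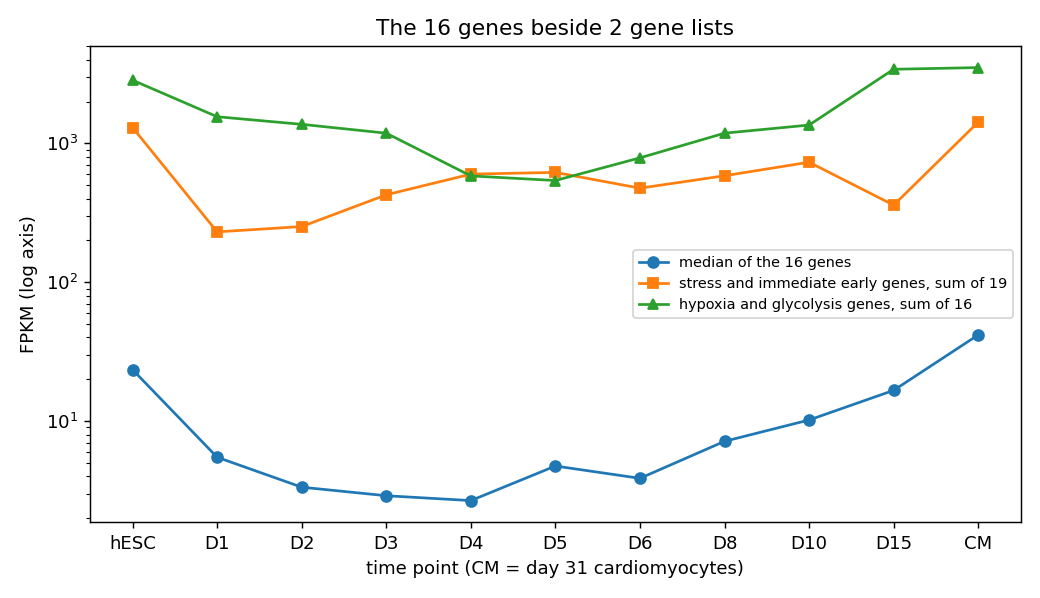
Median FPKM of the 16 genes (blue), summed FPKM of 19 stress and immediate early genes (orange) and of 16 hypoxia and glycolysis genes (green) at the 11 time points on a log axis, 1 value for 2 libraries each. The median of the 16 genes was lowest at D4 (2.68 FPKM), the stress sum at D1 (230.4 FPKM) and the hypoxia and glycolysis sum at D5 (539.7 FPKM).

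The members closest to the 4-fold limit were CBX6 (4.12 times), HOOK1 (4.16) and EMP3 (4.25), and the genes just outside it were MVP (3.88), GATM (3.84) and OTUD1 (3.75). By the floor, PER3 was closest, with a lower end of 11.8 FPKM. At the other extreme, apart from SEPN1, GEM reached 9.81 times, EEF1A2 8.63, PER3 8.61, ENO2 8.54 and HCN4 8.12.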

How the data were processed

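RNA of 30 libraries (15 groups of 2) was measured. Per the submitters' processing notes, reads were handled with TopHat2 2.0.8b, Bowtie2 2.1.0.0 and Cufflinks on hg19. Annotation, strand setting and scaling: not given in the sources used here. The authors deposited 3 tables: FPKM values, 1 per gene and time point, and for each sort FPKM per population. Per the file headers, the sort tables add a log2 fold change and a linear ratio. The authors' test statistic is a score, deposited beside a p-value and a q-value. The sort tables hold q-values under 0.05 alone (largest 0.0497 and 0.0499). Sort loci were made 1-based, since 6 members then have their GENCODE 29 length. The time-course header names no unit, and FPKM is taken from Cufflinks and the values. No label says that a group's libraries are separate cultures; the deposited p-values then measure the spread between libraries, which may be technical.

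Genes with at least 1 FPKM at 1 or more time points were kept (21715). The planned limma fit needs libraries apart and was not run; differences are counts at 2-fold on log2(FPKM + 1), which understates changes of low genes. Depth per library is not given. Values under 0.15 FPKM sit on steps, and the commonest ratio to D1 was 1.93 at D15 and 1.57 in hESC, so low values there rest on fewer fragments. Members, gene lists and motifs were chosen with earlier results of these data known. All members are named, with values at all time points. Not every list gene with the dip is reported here. The selection was tested on simulated data. SEPN1 and PTRF were matched to SELENON and CAVIN1 through RefSeq synonyms. Python 3.11.15, pandas 2.3.3 and numpy 2.4.6 were used.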

Additional observations from a re-analysis of the deposited data

How the results depend on the processing

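No paired analysis was possible because each deposited column joins the 2 libraries of a group, and for the same reason no library could be left out. Of 184 values recomputed under other settings, 155 stayed within 1.5 times. Part of these could not move. All 16 genes are protein-coding and none was listed at 0, so keeping such genes alone repeats the same values. Leaving out the filter on low values does not alter the shares of the 16 genes either. The number of genes depended on the rule: 41 with a fold of 3, 6 with 6, 36 with a floor of 5 FPKM, 8 with 20 FPKM and 43 without D4. Rescaling each column by its median ratio (log2 shifts of -0.57 at D15 to 0.31 at D1) kept 14 of the 16 genes, losing EMP3 and CBX6, and 5.56% of the 18 genes then chosen were higher in cardiomyocytes than at D15, against 2.43% of all genes. With a pseudocount of 0.1, 18.8% were higher at D5 than at D4, against 9.29% of all genes. A fold of 6 gave 0% at D5 and 50% at D6, and a floor of 20 FPKM gave 12.5% at D5. Without D4 in the rule the shares higher than D4 were 14% at D6, 23.3% at D8 and 37.2% at D10. Settings chosen after seeing the data were D15 in place of cardiomyocytes, with 0% higher in cardiomyocytes than at D15, and D1 in place of hESC. With D1 in that place 2 genes were selected, SEPN1 and ACSL1, of which 50% were lower at D1 than in hESC, 0% higher at D5, 100% higher at D6, D8 and D10, and 50% higher in cardiomyocytes than at D15. In the D3 sort 25% were called at a q-value under 0.01, against 14.7% of all genes, and 25% with a 2-fold difference, against 9.34%. The direction in that sort depended on the rule. With a fold of 3, 4 called genes were higher and 17 lower in ROR2-positive cells, and with a floor of 5 FPKM 7 and 11. Without D4 10 were higher and 13 lower, and with D15 in place of cardiomyocytes 4 and 6. With a fold of 6 and with a floor of 20 FPKM 0 were higher. In the D4 sort 31.2% were called with a 2-fold difference, against 9.35%. Among the lists, with settings also chosen after seeing the data, rescaling gave a dip in 3 integrated stress response genes, 1 fatty acid gene and 1 cholesterol gene, and a pseudocount of 0.1 in 1 p53 target and 1 metallothionein or oxidative response gene. The causes were not tested. With 1 value per time point, no difference over time can be set against the spread between libraries.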

Other observations

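Because PER3 and BHLHE40 were among the 16 genes, 17 genes of the circadian clock were looked up after the members were known, so the list gets no test. Of the 16 that reached 1 FPKM, 6 had the 2-fold dip: PER3, BHLHE40, BHLHE41, C1orf51 (now CIART), RORA and PER1. PER1 stood at 86.3 FPKM in hESC, 6.31 to 12.0 FPKM at D2 to D4 and 29.95 FPKM in cardiomyocytes. BHLHE41 stood at 10.3 FPKM in hESC, 0.149 to 0.474 FPKM at D2 to D4 and 3.91 FPKM in cardiomyocytes, below the floor of the selection. DBP and NR1D1 came back in small part. DBP had 37.6 FPKM in hESC, 2.97 to 3.30 FPKM at D2 to D4 and 5.64 FPKM in cardiomyocytes. NR1D1 had 12.8 FPKM in hESC, 0.367 to 1.01 FPKM at D2 to D4 and 2.08 FPKM in cardiomyocytes. The activators CLOCK and ARNTL had no such dip, with CLOCK at 8.76 FPKM in hESC, 17.2 at D3 and 18.2 in cardiomyocytes. NPAS2, also in this list, had 1.49 FPKM in hESC, 0.213 to 0.326 FPKM at D2 to D4 and 2.99 FPKM in cardiomyocytes. Its lower end was 4.58 times the highest of D2 to D4, but short of the 2-fold dip on the log2(FPKM + 1) scale.

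Paralogues of the members, also chosen afterwards, mostly had other courses. Besides the members themselves, RRAD, a relative of GEM, had the dip, with 3.90 FPKM in hESC, 0.134 to 0.321 FPKM at D1 to D4 and 41.2 FPKM in cardiomyocytes. MEF2C stood at 0.565 FPKM in hESC, 45.2 at D6 and 39.2 in cardiomyocytes, where MEF2D was high, low and high. ENO1 was at 1109 FPKM in hESC, 1326 at D2, 404 at D4 and 2210 in cardiomyocytes. Its lowest value was thus at D4, below both ends, while its D2 value was above that of hESC. Among the Polycomb CBX genes, CBX2 was at 24.3 FPKM in hESC, 25.4 at D4 and 5.23 in cardiomyocytes, unlike CBX6. CBX7 was nearer to CBX6, with 4.99 FPKM in hESC, 0.932 to 2.65 at D2 to D4 and 6.76 in cardiomyocytes. That was short of the 2-fold dip.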
